A study of Megathyrsus maximus with 33 samples.

Results

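Warming of Guinea grass (Panicum maximum Jacq.) in air already enriched with [CO2] was examined after 30 days of treatment (time point A) by comparing leaves of the eCeT plots with leaves of the eC plots. The 8 libraries of these plots were chosen from the 32 RNA-seq libraries of the field experiment by their labels, 4 plots a side, and all 39208 transcripts of the log2 table were kept. Both groups grew under elevated [CO2], set at 600 ppm by free-air enrichment, and eCeT plots were also warmed by 2 °C above ambient with infrared ceramic heaters over the canopy. The control (C) had neither factor and eT had warming alone, and each of these groups also had 4 plots. The youngest fully expanded leaves of a plot were pooled into 1 library, so a replicate is a plot and its number is the ring that held it. At a second sampling, labelled 50 days (time point B), the same plots were used.

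Guinea grass is a tropical forage grass that fixes carbon through C4 photosynthesis, in which mesophyll cells feed CO2 to Rubisco in the bundle sheath. The pathway consumes additional ATP, and cyclic electron flow around photosystem I is one way in which chloroplasts supply it. Part of this flow runs through the chloroplast NADH dehydrogenase-like (NDH) complex, which returns electrons from ferredoxin to plastoquinone. When leaves warm, plants typically induce heat shock proteins, chaperones that keep other proteins folded, and many plants lower parts of their immune programme when they are moderately warm.

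After 30 days, 95 transcripts were called differentially expressed between eCeT and eC, which is 0.242% of the 39208 tested (limma, adjusted p under 0.1, the study's threshold). In eCeT 27 were higher (0.0689%) and 68 were lower (0.173%). Only 2 of the 95 carry a usable name in the study's files, the NDH pathway transcripts NDF1 and LHCA6. These were 4.54-fold and 3.51-fold lower in the warmed plots. Without names the other called transcripts could not be compared with them by function. The median change of the called transcripts was 1.64 on the log2 scale for those that rose and -1.14 for those that fell, against 0.03 for all transcripts. Of the 95, 68 changed by more than 1 on the log2 scale, against 10.7% of all transcripts, and the plots of the groups did not overlap for 91, against 6.23% of all transcripts. This held for 26 of those that rose, against 2.8% of all transcripts, and for 65 of those that fell, against 3.43%. The 95 were picked by a test on these same plots, so larger changes and less overlap follow from the choice. They are a description and not separate evidence for the calls. The 4 whose plots overlapped, named here after their values were seen, were c89545_g11 (1.59), c93843_g5 (-1.09), c90804_g2 (-0.999) and c79018_g1 (-1.25).

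**Figure D1:**
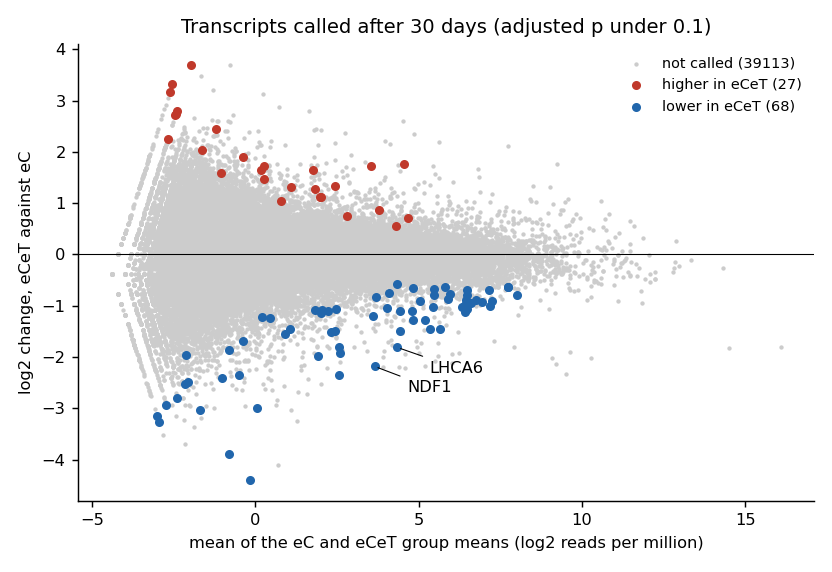
Log2 change between eCeT and eC after 30 days (y axis) against the mean of both group means in log2 RPM (reads scaled to a common library size, x axis), 1 point per transcript. The 27 transcripts called higher in eCeT are red and the 68 called lower are blue, and most of the blue points lie among well-expressed transcripts.

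The calls rested on particular plots and settings. With voom on the recovered reads 18 transcripts were called, and with only the libraries of time point A 6 were. At an adjusted p under 0.05 the count was 8 (limma). Without eC replicate 2 no transcript was called (limma, smallest adjusted p = 0.109, with 3850 transcripts at an unadjusted p under 0.05), and without eC replicate 1 the count was 347. With any other plot left out it lay between 11 and 58. The lowest, 11, was without eCeT replicate 2, then 14 without eCeT replicate 3, 25 without eCeT replicate 1, 26 without eC replicate 4, 50 without eC replicate 3 and 58 without eCeT replicate 4. None of the 95 changed direction when a plot was left out or under the other settings tried. For the 91 whose plots did not overlap, leaving out a plot could not reverse the direction. Several other settings, such as no variance trend or a stricter threshold, leave the log2 change as it is. The constant signs are thus not separate evidence for the calls. The balance of directions did depend on the scaling between libraries and on other steps of the processing. Without the TMM scaling, an alternative chosen after seeing the data, the median of all transcripts moved to 0.29 and 50 transcripts were called, 44 higher and 6 lower. The FPKM table, which also differs in its transcripts and libraries, had a median of 0.13. In it 34 were called, 27 higher and 7 lower, and 13 of these were among the 95. With 5 reads added 7 were higher and 68 lower, and after centring each library on its median 17 were higher and 78 lower.

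**Figure D2:**
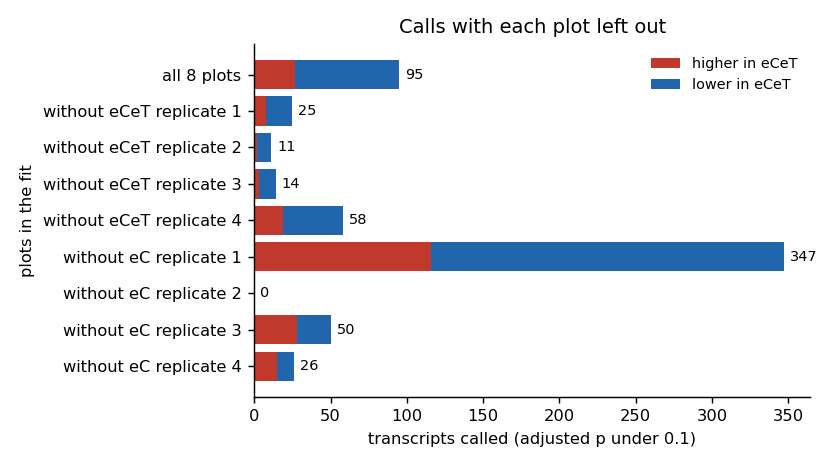
Number of transcripts called between eCeT and eC after 30 days (x axis, split by direction) with all 8 plots and with each plot left out in turn (y axis). The count ranges from 0 without eC replicate 2 to 347 without eC replicate 1.

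Recovered reads per library lay between 8650485 and 12561618 in the 8 libraries, with eCeT replicate 3 the lowest. The effective library size used by the authors was 0.83 to 1.06 times the recovered reads in eC and 1.00 to 1.14 times in eCeT. The most abundant transcript, c78052_g1, which the study's files do not name, took 6.52%, 8.13%, 16.2% and 22.1% of the reads in eC replicates 1 to 4 and 3.83%, 12.3%, 3.44% and 1.66% in eCeT. It changed by -1.80 ± 0.89 (SE, log2, n = 4 plots a side) and was not called (adjusted p = 0.413, limma), and its part in the scaling was not tested. Grouping by treatment accounted for 18% of the squared distances between the 8 libraries, with a median of 13.9% over all 70 assignments (exact permutation test, one-sided, p = 0.0571, where 0.0286 is the smallest possible). Levels are given as RPM, the recovered reads scaled to an effective library size of 1000000. Of the 4 chloroplast transcripts used to check the leaf label, NDF1, LHCA6 and plastocyanin 1 had reads in all 8 libraries, and chlororespiratory reduction 3 in 7. Presence of reads is a weak check, since some of these levels were very low, and it cannot establish the tissue. Ribulose-5-phosphate 3-epimerase, a Calvin cycle enzyme (c81866_g1), stood between 596 and 841 RPM in all 8 libraries.

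NDF1 (c84013_g1, NDH-dependent cyclic electron flow 1) encodes in Arabidopsis a subunit of the chloroplast NDH complex. It stood at 28.2, 28.1, 27.3 and 23.6 RPM in eC replicates 1 to 4 and at 5.05, 8.54, 4.25 and 6.44 in eCeT replicates 1 to 4. All warmed plots lay far below all plots with elevated [CO2] alone. The means were 26.8 ± 2.17 and 6.07 ± 1.88 RPM (SD, n = 4 each), the log2 change was -2.18 ± 0.38 (SE) and the adjusted p = 0.0347 (limma). In C the level was 25.1, 14.6, 32.7 and 15.0 RPM, and in eT it was 14.9, 7.12, 5.85 and 5.26. The eT plots were thus also at the lower end, with a log2 change of -1.43 ± 0.38 from C that was not called (adjusted p = 0.141). The warming effects at the 2 [CO2] levels differed by -0.75 ± 0.54, which was not called either (interaction, adjusted p = 0.884). The call for NDF1 was lost without eC replicate 2 (log2 change -2.16, adjusted p = 0.109) and in the FPKM table (-1.80, adjusted p = 0.124), and it held with each other plot left out.

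LHCA6 (c82081_g1, photosystem I light harvesting complex gene 6) encodes in Arabidopsis an antenna protein that links the NDH complex to photosystem I. Its level was 24.4, 46.2, 34 and 54.4 RPM in the eC plots and 11.9, 15.1, 6.48 and 11.8 in the eCeT plots. The lowest eC plot was above the highest eCeT plot. The log2 change was -1.81 ± 0.33 (SE, n = 4 plots a side, adjusted p = 0.0351, limma). In C it stood at 22.3, 20.3, 37.1 and 24.0 RPM and in eT at 19.7, 12.3, 5.17 and 6.01, a log2 change of -1.42 ± 0.33 (adjusted p = 0.111). The eT plots lay below every C plot. The call for LHCA6 was lost without eCeT replicate 3 (log2 change -1.57, adjusted p = 0.148), without eC replicate 2 (-1.72, adjusted p = 0.113), without the TMM scaling (-1.55, adjusted p = 0.111), in the FPKM table (-1.60, adjusted p = 0.148) and with only the libraries of time point A (adjusted p = 0.141).

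At time point B the plots overlapped for both transcripts. NDF1 then stood at 63.6, 37.4, 34.1 and 16.1 RPM in eC and at 27.3, 16.7, 37.2 and 8.62 in eCeT, and its log2 change was -0.79 ± 0.38 (adjusted p = 0.888). LHCA6 changed by -0.55 ± 0.33 (adjusted p = 0.915). A further NDH-related transcript, chlororespiratory reduction 3 (c87432_g1), was too low to place. It had no reads in eC replicate 1, and the other eC plots had 0.715, 0.324 and 1.36 RPM, against 0.0765, 0.676, 0.101 and 0.296 in eCeT. Its log2 change was -0.53 ± 0.72 (adjusted p = 0.814).

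The other plastid transcripts had mixed values. Plastocyanin 1 (c66714_g1), which carries electrons to photosystem I, stood at 0.354, 0.834, 3.34 and 4.57 RPM in eC and at 7.73, 8.96, 11.1 and 6.29 in eCeT. The groups did not overlap, and the log2 change of 2.45 ± 0.63 was not called (adjusted p = 0.118). Under warming at ambient [CO2] it was also above all C plots, with 7.65 to 21.1 RPM in eT against 1.57 to 3.75 in C. An ACD1-like transcript (c67128_g1), related to an enzyme of chlorophyll breakdown, changed by 2.36 ± 0.92 (adjusted p = 0.288). Ribulose-5-phosphate 3-epimerase changed by -0.27 ± 0.16 (adjusted p = 0.518) and a zinc-binding dehydrogenase (c80513_g1) by 0.10 ± 0.18 (adjusted p = 0.866). Of the 7 members of this list, 2 were called, both lower, where 0.173% of all transcripts were called lower. The study chose 5 of the 7 from eCeT against C at time point A, which uses the same eCeT plots. The count called is thus not independent evidence. The list median was -0.27, and it was 0.032 without eC replicate 4 and -0.0089 without the TMM scaling.

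**Figure D3:**
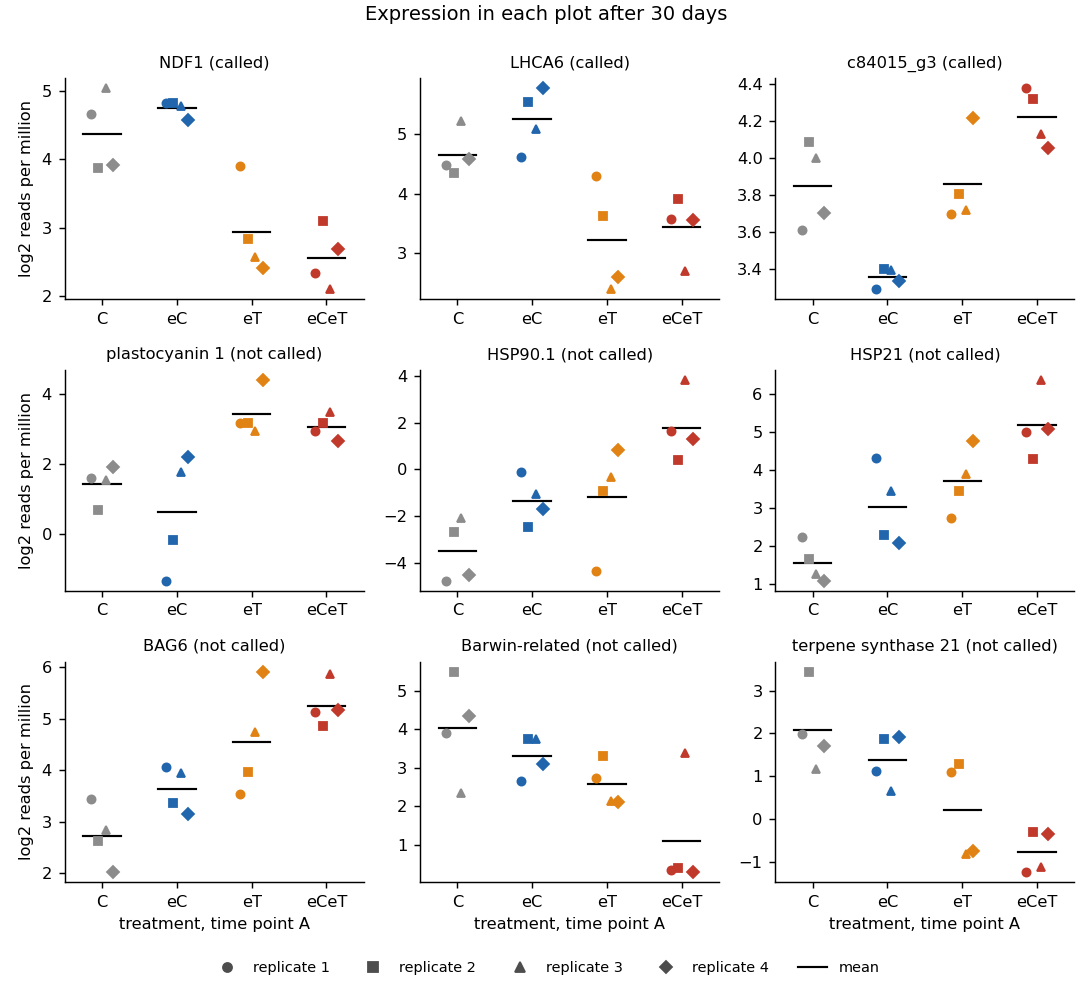
Log2 RPM (y axis) in each plot of the 4 treatments after 30 days (x axis) for 3 called and 6 uncalled transcripts, with symbols for the replicate number and a bar for the group mean. NDF1 and LHCA6 lie lower in all eCeT plots than in any eC plot, and eCeT replicate 3 lies highest of the eCeT plots for HSP90.1, HSP21 and BAG6.

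The other called transcripts carry no name in the study's files. c84015_g3 stood at 9.73, 10.5, 10.5 and 10.0 RPM in eC and at 20.7, 20.0, 17.4 and 16.6 in eCeT, a log2 change of 0.87 ± 0.15 (adjusted p = 0.0347). The C plots, at 12.2 to 16.9, and the eT plots, at 12.9 to 18.6, lay above eC and partly within the range of eCeT, and the change from C to eT was 0.01 ± 0.15. c94097_g1 had 19, 17.1, 22.7 and 21.3 RPM in eC and 32.4, 38, 29.5 and 30.6 in eCeT (log2 change 0.70 ± 0.14, adjusted p = 0.0572). c94579_g2 had 16.7, 15.5, 16.6 and 16.3 in eC and 28, 24.9, 21.6 and 21.3 in eCeT (0.55 ± 0.13, adjusted p = 0.0942), the smallest change among the 27 that rose. c77441_g1 stood at 4.69, 22.9, 15.2 and 15.7 RPM in eC and at 42.9, 48.5, 57.4 and 28.4 in eCeT (1.76 ± 0.40, adjusted p = 0.0914). For these 4 transcripts every eCeT plot was above every eC plot. At time point B c77441_g1 was again higher in each eCeT plot (15.1 to 27.5 RPM) than in any eC plot (4.96 to 8.33), and that change of 1.60 ± 0.40 was not called (adjusted p = 0.855). Over 23 other settings, including each plot left out, the time point A call was lost in 3 for c84015_g3, 7 for c94097_g1, 15 for c77441_g1 and 16 for c94579_g2. Of all 21 called transcripts named by rule, 6 stayed called with voom and 0 without eC replicate 2.

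The 3 most abundant transcripts that fell moved by less than 1 on the log2 scale. c75772_g1 stood at 272, 401, 369 and 344 RPM in eC and at 223, 208, 165 and 198 in eCeT (log2 change -0.80 ± 0.19, adjusted p = 0.0999). c77345_g1 had 247, 269, 292 and 261 in eC and 168, 177, 172 and 171 in eCeT (-0.63 ± 0.14, adjusted p = 0.0886). c88756_g2 had 266, 280, 269 and 243 in eC and 156, 166, 176 and 180 in eCeT (-0.64 ± 0.15, adjusted p = 0.0999). All were lower in every eCeT plot. Their calls lay close to the threshold and were lost in 20, 15 and 19 of 23 other settings, in the order given. c77345_g1 in C (168 to 219) and eT (132 to 246) overlapped the eCeT range. c70069_g1, among those with the smallest p, stood at 2.04, 3.57, 3.56 and 3.71 RPM in eC and at 0.765, 1.10, 1.01 and 1.41 in eCeT (-1.55 ± 0.27, adjusted p = 0.0347).

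The largest changes were in transcripts with few reads. c77872_g1 had 19, 28, 31 and 112 reads in eC and 7, 15, 0 and 0 in eCeT (log2 change -4.40 ± 0.87, adjusted p = 0.0557). c64633_g1 had 60, 10, 21 and 12 reads in eC and 5, 0, 1 and 2 in eCeT (-3.89 ± 0.72, adjusted p = 0.0351), and the eT plots were also low, with 2, 4, 0 and 1 reads against 12, 23, 15 and 10 in C. c87159_g1 had 10, 6, 11 and 5 reads in eC and 2, 1, 0 and 1 in eCeT (-3.03 ± 0.65, adjusted p = 0.074). In each of these every eCeT plot was below every eC plot in normalised level. c67301_g1 had 5, 5, 2 and 2 reads in eC and 0 in all eCeT plots, at least 6.08-fold lower against a floor of 3 reads over the group (adjusted p = 0.077). c51994_g1 had 5, 1, 2 and 6 reads in eC and 0 in eCeT, again at least 6.08-fold lower (adjusted p = 0.0886). c75907_g1 had 3, 2, 4 and 5 reads in eC and 1 in a single eCeT plot, a ratio of 18.24 with an exact 95% interval of 2.78 to 771 (adjusted p = 0.0351). These floors and intervals cover counting error only.

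Among those that rose, c39022_g1 had no reads in any eC plot and 6, 6, 6 and 6 in eCeT, at least 6.14-fold higher (adjusted p = 0.0557). Its C plots held 4, 4, 2 and 6 reads and its eT plots 3, 3, 2 and 7, so eC was the group without reads. c87803_g1 had no reads in eC and 6, 2, 9 and 7 in eCeT, at least 6.14-fold higher (adjusted p = 0.0351). c62739_g1 had 0, 1, 0 and 0 reads in eC and 14, 6, 16 and 9 in eCeT, a ratio of 34.5 with an interval of 5.89 to 1394 (adjusted p = 0.077). It was also nearly without reads in C, with 2 in a single plot. c61286_g1 had 0, 0, 1 and 0 reads in eC and 2, 9, 9 and 5 in eCeT, a ratio of 19.2 with an interval of 3.14 to 788 (adjusted p = 0.0942). c69606_g1 had 1, 0, 0 and 0 reads in eC and 4, 6, 5 and 6 in eCeT, a ratio of 16.1 with an interval of 2.59 to 667 (adjusted p = 0.0572). Of all the called transcripts, 22 had a mean under 10 reads per library, 10 of those that rose and 12 of those that fell. By contrast 38 of the 68 that fell had a mean of 100 reads or more. Among the 9802 transcripts with the highest mean level 43 were called, 5 higher and 38 lower, against 14 among the 9802 with the lowest, 7 higher and 7 lower. The 5 that rose among the most abundant were c84015_g3, c94097_g1, c94579_g2, c77441_g1 and, named after its value was seen, c94391_g3 (1.72).

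Whether warming acted alike at the 2 [CO2] levels was examined with eT against C, whose 8 libraries are all different from those of eCeT and eC. That comparison called 19 transcripts, 2 higher (0.0051%) and 17 lower (0.0434%), together 0.0485% of all tested. It called 0 (limma) without eT replicate 3, the shallowest of the 32 libraries with 6148491 reads, without C replicate 2 and without C replicate 4, and 305 without eT replicate 2, 182 without eT replicate 1, 38 without C replicate 3 and 9 without eT replicate 4. The 2 called in both comparisons, named after their values were seen, fell by similar amounts. c95102_g3 changed by -1.02 ± 0.24 under elevated [CO2] and by -1.23 ± 0.24 at ambient [CO2], and c73219_g1 by -1.48 ± 0.33 and -1.59 ± 0.33. Of the 68 transcripts that fell between eC and eCeT, 61 had a negative change between C and eT (89.7%), with a median of -0.67. Of the 27 that rose, 18 had a positive change there (66.7%), with a median of 0.09. Over all transcripts 57.6% had the same sign in both comparisons, and Pearson's r was 0.21 and Spearman's rho 0.20 across transcripts, which share libraries and are not independent. The test of the difference called 0 transcripts (limma, interaction, smallest adjusted p = 0.557, with 2254 at an unadjusted p under 0.05, and 0 with voom on the recovered reads).

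**Figure D4:**
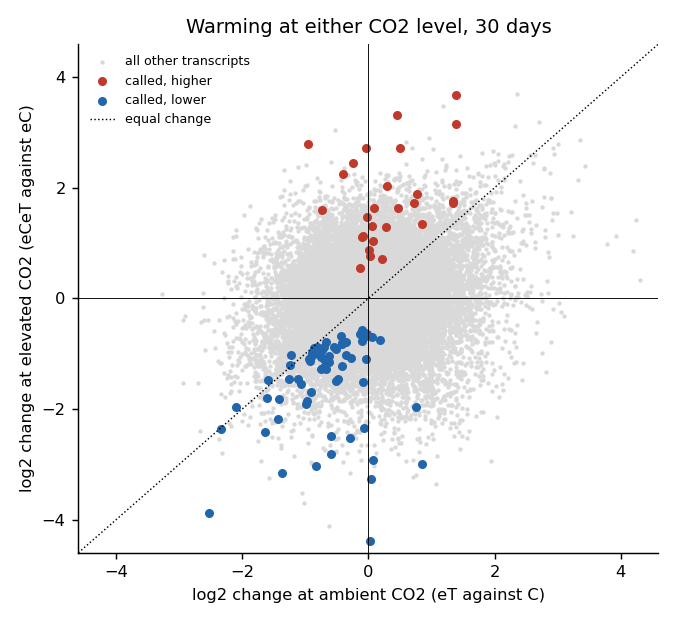
Log2 change with warming under elevated [CO2] (eCeT against eC, y axis) against that at ambient [CO2] (eT against C, x axis) after 30 days, 1 point per transcript and a dotted line of equal change. Most of the 68 called lower (blue) lie left of 0, while the 27 called higher (red) centre near 0 on the x axis, with a median of 0.09.

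The called transcripts that rose had a median log2 change of -0.77 from C to eC and of 0.57 from C to eCeT, and those that fell had 0.31 and -0.96. These comparisons share plots with eCeT against eC and are given only as values side by side. Between eC and C 0 transcripts were called (limma, with 3097 at an unadjusted p under 0.05).

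At time point B eCeT against eC called 0 transcripts (limma, smallest adjusted p = 0.129, with 2201 at an unadjusted p under 0.05, and 0 with voom). With array weights the count was 61. Of the 68 that had fallen at time point A, 50 had a negative change at time point B (73.5%, median -0.18), and of the 27 that had risen 12 had a positive change (44.4%, median -0.02). Over all transcripts 51.2% had the same sign at both times. The difference between the time points called 0 transcripts as deposited (limma, smallest adjusted p = 0.391, with 3084 at an unadjusted p under 0.05, and 0 with voom). Without the TMM scaling it called 2141, of which 2091 were more positive at time point A, and the median of all transcripts then moved to 0.67.

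Members of 6 functional lists were then read from the same fit. The lists hold 64 transcripts that the study's files name. The study chose most of them from eCeT against C at time point A, which uses the same eCeT plots. Their directions, calls and lack of overlap are thus not independent evidence. The C plots of that choice also enter eT against C and eC against C, so the directions there are not independent of it either. Of the 64, 2 were called between eCeT and eC (NDF1 and LHCA6), where 0.242% of all transcripts were called, and the plots did not overlap for 21 (32.8%, against 6.23% of all transcripts).

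All 10 heat shock and protein folding transcripts had a positive change and none was called (median log2 change 1.17, range 0.12 to 3.12, smallest adjusted p = 0.151). They were also all positive between C and eT (median 1.77), between C and eC, where no plot was warmed (median 1.23), and at time point B (median 1.61). HSP90.1 (c69462_g3), a cytosolic chaperone, stood at 0.885, 0.119, 0.432 and 0.247 RPM in eC and at 3.06, 1.27, 14.2 and 2.44 in eCeT (3.12 ± 1.14, adjusted p = 0.258). HSP21 (c78721_g1), the small heat shock protein of chloroplasts, stood at 19.9, 4.88, 10.8 and 4.20 in eC and at 31.7, 19.4, 82.7 and 33.9 in eCeT (2.14 ± 0.74, adjusted p = 0.23). In both, eCeT replicate 3 was far above the other eCeT plots. BAG6 (c95990_g1), a co-chaperone, had 16.7, 10.2, 15.3 and 8.78 RPM in eC and 34.7, 28.8, 58.2 and 35.8 in eCeT (1.62 ± 0.45, adjusted p = 0.151). The transcriptional coactivator multiprotein bridging factor 1C (c75211_g1) had 5.04, 5.12, 3.02 and 4.82 in eC and 9.33, 9.64, 27.0 and 7.77 in eCeT (1.4 ± 0.66, adjusted p = 0.386). HSP90.1, BAG6 and bridging factor 1C were above all eC plots in every eCeT plot.

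The remaining heat shock transcripts overlapped between the groups. HSP101 (c88586_g2), which dissolves protein aggregates, changed by 0.70 ± 0.55 (adjusted p = 0.65), with 66.0 RPM in eCeT replicate 3 and 16.7 to 23.1 in the other eCeT plots. An HSP18.2 transcript (c76756_g2) stood at 262 in eCeT replicate 3 and at 37.5 to 83.7 in the others, and a class II small heat shock protein (c85117_g1) at 173 and 45.4 to 52.4. For 9 of the 10 members eCeT replicate 3 was the highest of the 8 libraries. The median over the members, relative to the eC mean, was 0.80, 0.62, 2.48 and 0.70 in eCeT replicates 1 to 4. Without replicate 3 all 10 still had a positive change and the list median was 0.71. That plot had the fewest reads of the 8 libraries, and the part of this in its values was not tested.

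**Figure D5:**
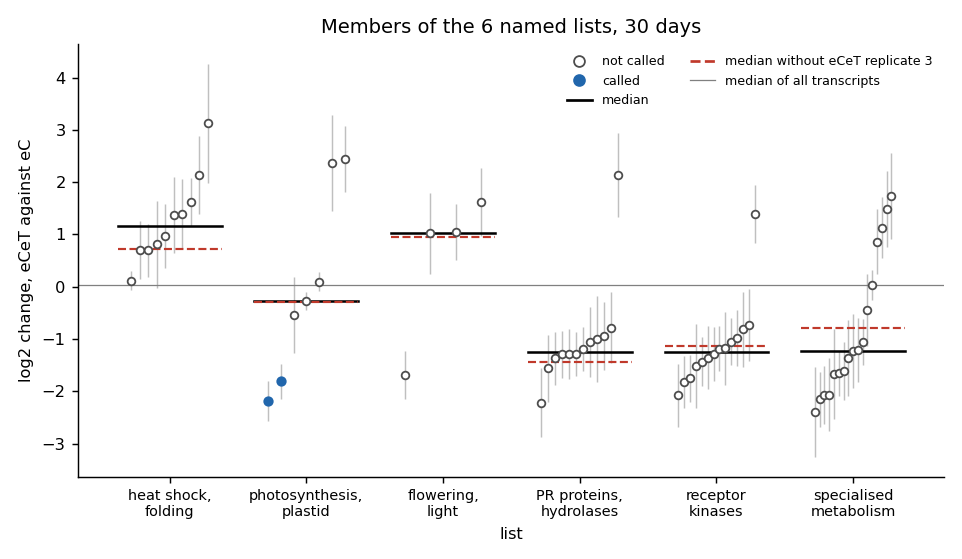
Log2 change between eCeT and eC after 30 days (y axis) for each member of the 6 lists (x axis), with SE from limma as bars, the list median as a black line and the median without eCeT replicate 3 as a dashed red line. All 10 heat shock members lie above 0 with open, uncalled symbols, and the only filled symbols are NDF1 and LHCA6.

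Of 12 pathogenesis-related (PR) proteins and wall hydrolases, many of which attack the cell walls of pathogens, 11 had a negative change and none was called (median -1.24, smallest adjusted p = 0.171). The Barwin-related transcript (c93254_g1) stood at 6.28, 13.5, 13.4 and 8.53 RPM in eC and at 1.22, 1.27, 10.4 and 1.18 in eCeT (-2.22 ± 0.66, adjusted p = 0.171). Only eCeT replicate 3 reached the eC range. Chitinase A (c85177_g1), which cuts fungal wall chitin, had 4.25, 18, 7.34 and 15.4 in eC and 3.52, 3.97, 4.15 and 4.15 in eCeT (-1.29 ± 0.42, adjusted p = 0.209), with no overlap. Relative to the eC mean the median over the members was -1.54, -1.24, 0.05 and -1.59 in eCeT replicates 1 to 4, so replicate 3 stood apart here too. Without it the list median was -1.43. The exception in sign was a polygalacturonase inhibiting protein (c86748_g3, 2.14 ± 0.80, adjusted p = 0.268), which blocks pathogen pectinases. In eT against C 11 of 12 were also negative, with a median of -1.36, and so were 11 of 12 in eC against C, without warming, with a median of -0.66.

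Receptor-like kinases and immune receptors, which sense microbes, were negative for 13 of 14 members, none called (median -1.24). CRK11 (c88073_g8), a cysteine-rich receptor-like kinase, stood at 3.10, 3.22, 3.45 and 3.34 RPM in eC and at 1.45, 1.10, 0.405 and 1.18 in eCeT (-1.75 ± 0.44, adjusted p = 0.115). All eCeT plots were below all eC plots. An S-locus lectin kinase (c73129_g1) changed by -1.82 ± 0.49 (adjusted p = 0.133). ADR1-like 3 (c70514_g1), of the helper receptor family, had 0.354, 0.238, 0.324 and 0.124 RPM in eC and 0.535, 0.846, 1.32 and 0.518 in eCeT (1.39 ± 0.56, adjusted p = 0.306) and was the member with a positive change. In the FPKM table the median of this list was -0.42. Between C and eT 13 of 14 were also negative (median -1.63), and so were 13 of 14 between C and eC, without warming (median -0.81). At time point B 10 of 14 were negative (median -0.12).

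In specialised metabolism 12 of 17 members had a negative change and 5 a positive one, none called (median -1.23). Terpene synthase 21 (c81347_g1), of the family that makes volatile terpenes, was nearest to the threshold. It stood at 2.12, 3.57, 1.51 and 3.71 RPM in eC and at 0.382, 0.761, 0.405 and 0.740 in eCeT (-2.15 ± 0.53, adjusted p = 0.104). CYP71A23 (c92038_g1), a cytochrome P450, had 3.72, 9.41, 6.47 and 4.70 in eC and 1.91, 1.61, 1.32 and 2.52 in eCeT (-1.66 ± 0.44, adjusted p = 0.127). Neither overlapped between the groups. CYP79B2 (c92299_g1), which in Arabidopsis turns tryptophan into indole-3-acetaldoxime, had 1.24, 2.38, 2.05 and 2.60 in eC and 6.12, 2.62, 9.82 and 13.3 in eCeT (1.74 ± 0.82, adjusted p = 0.39). The list median was -0.80 without eCeT replicate 3 and -0.18 in the FPKM table. Between C and eT 12 of 17 were also negative (median -1.41), and so were 12 of 17 between C and eC, without warming (median -0.74). At time point B 11 of 17 were negative (median -0.21).

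Of 4 flowering and light transcripts none was called. Both members of the PEBP family, to which the mobile flowering signal FT belongs, had higher means in eCeT. c64038_g2 stood at 3.19, 1.79, 5.93 and 4.57 RPM in eC and at 16.1, 5.67, 13.4 and 12.1 in eCeT (1.63 ± 0.65, adjusted p = 0.304), and 1 eCeT plot lay within the eC range. c77009_g3 had 5.22, 5.84, 8.85 and 6.55 in eC and 14.8, 11.8, 19 and 9.77 in eCeT (1.04 ± 0.54, adjusted p = 0.428), without overlap. CONSTANS-like 2 (c83306_g1), a zinc-finger protein of the CONSTANS family of day-length regulators, had 3.63, 1.91, 1.94 and 0.618 in eC and 0.382, 0.423, 1.32 and 0.296 in eCeT (-1.69 ± 0.46, adjusted p = 0.133), with overlap. The NPH3 family transcript (c92145_g1), related to phototropism, changed by 1.02 ± 0.78 (adjusted p = 0.636).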

How the data were processed

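Deposited log2 values were used as the authors made them, by TMM scaling and voom, as log2 of the reads of a transcript plus 0.5, scaled to an effective library size of 1000000. The authors assembled the transcripts de novo with Trinity and removed extreme outliers before testing. The aligner is not given in the sources used here, and base calls came from bcl2fastq 1.8.4 per the labels. Whole reads were recovered from the log2 values (within 0.02 for 100% of values up to 1000 reads, which are 96.2% of all). The deposited FPKM table was used as an alternative, as log2(FPKM + 1). In it 3 columns of the control, whose header lines disagree, were not used, and 29 were.

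limma 3.58.1 in R 4.3.3 fitted 1 model of 8 groups to 32 libraries, with a variance trend and Benjamini-Hochberg adjustment over 39208 transcripts. It was tested on simulated data first. Distances and summaries used Python 3.11.15, numpy 2.4.6, pandas 2.3.3 and scipy 1.17.1, and figures matplotlib 3.10.9. Log2 changes are given with the SE from limma. Each plot gave a library at both time points, so the residual spread of the model includes repeated samples of the same plots.

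The transcripts named are the 5 rising and 5 falling called with the largest change and no overlap of plots, the 3 and 3 with the smallest p, the 3 and 3 with the highest level, the called ones with a name, and the members of the 6 lists. Names are the study's BLASTX matches to Arabidopsis with E of at most 0.001. The members, lists and tests were chosen with earlier results of these data known. Near-identical copies in this polyploid assembly cannot be told apart. Without a genome no sequence is printed. Other settings tried were a filter at a group mean of 1 RPM, quantile normalization, median centring, no trend, robust moderation, array weights, fewer groups, the replicate block, a random plot term, a stricter threshold of 0.05, FPKM, voom, 5 reads added and each plot left out. The removal of TMM scaling and the list medians without eCeT replicate 3 were added after seeing the data. A pooled sample run on another sequencer, without a group, was not used here.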

Additional observations from a re-analysis of the deposited data

Results flagged for a closer look

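In 16 of 174 groups of 4 plots tested, 1 plot lay far from the others on the log2 scale. The cut-off gives about 5% for independent groups with a normal spread. These groups share libraries, so 16 of 174 cannot be set against it. For c75907_g1, c83643_g2 and c69606_g1 the other plots of the group had no reads, so their spread shows library size only. eCeT replicate 3 was the outlying plot in 9 of the 16. It was high for the osmotin-like c77132_g2 (6.49, others 4.59 to 4.89) and c79024_g1 (5.99, others 4.79 to 4.98), the beta-1,3-glucanase c79266_g4 (4.10, others 0.86 to 1.31), the Barwin-related c93254_g1 (3.39, others 0.29 to 0.39), the PR-1-type c93531_g5 (5.97, others 3.36 to 3.61) and the small heat shock protein c85117_g1 (7.44, others 5.51 to 5.71). It had no reads for the cytochrome P450 c71466_g3 (-4.30, others -0.36 to -0.32) and the glucosyltransferase c82435_g1 (-4.30, others -0.36 to 0.42), and the only read of the eCeT plots for c75907_g1 (-2.72, others -4.76 to -4.56).

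eCeT replicate 2 was the only eCeT plot with reads of the wall-associated kinase c83643_g2 (-1.76, others -4.76 to -4.30). eC replicate 1 was the only eC plot with a read of c69606_g1 (-2.91, others -4.21 to -4.02), and was low for c70069_g1 (1.06, others 1.85 to 1.91) and for the glycosyl hydrolase c80898_g2 (3.46, others 5.10 to 5.42). eC replicate 3 was low for bridging factor 1C, c75211_g1 (1.62, others 2.29 to 2.37), and high for the receptor kinase c80773_g2 (1.62, others 0.63 to 0.79). eC replicate 2 was low for the NPH3 family transcript c92145_g1 (-2.49, others -1.04 to -0.75).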

How the results depend on the processing

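For eCeT against eC after 30 days, the number called moved from 95 to 22 with quantile normalization and to 34 without the variance trend. Robust moderation gave 58, array weights 60 and voom 18. Using only the libraries of that time point gave 6, only the groups compared 48 and the stricter threshold 8. The FPKM table gave 34 and no TMM scaling 50. Not all of these calls were among the 95. Of the 95, 13 were called in the FPKM table and 27 with only the groups compared. Without the TMM scaling 28 were, and with array weights 55. All 22 with quantile normalization and all 18 with voom were among the 95. The counts with the filter (92), centring (95), 5 reads added (75) and the plot as a random effect (76) stayed within 1.5 times. Of the 95, centring kept 80, 5 reads added 62 and the random effect 76. The filter kept 80, which were all of the 95 that it left in. Leaving out a plot gave 0 to 347. With the replicate block the count was 218, all 95 included. Same-numbered plots of eC and eCeT at time point A did not deviate together (r = 0.08, -0.05, 0.04 and -0.12 for rings 1 to 4). Not every plot correlated best with its own number. That check covered only these groups, while the block was fitted to all 32 libraries, so it cannot decide whether the block is needed. Whether plots of a ring varied together in the other groups was not tested. Of the 95, none changed sign under any of these. For the 91 without overlap this was fixed in advance when a plot was left out. It was also fixed under settings that alter only the spread or the threshold.

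The interaction gave 1 call with 5 reads added, and 0 to 2 with a plot left out. At time point B centring, the FPKM table and 5 reads added each gave 1 call, array weights 61 and only that time point's libraries 2, and leaving out a plot 0 to 3. For the difference between time points array weights gave 3, only the groups compared 1, log2(FPKM + 1) gave 26 and no TMM scaling 2141, with 0 to 11 when a plot was left out. For eT against C the filter gave 46, quantile normalization 52, centring 31, the replicate block 163, 5 reads added 135 and no TMM scaling 452. No trend, array weights, only the groups compared, an adjusted p under 0.05 and voom gave 0, and leaving out a plot 0 to 305. The cause of these differences was not tested.

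The share of squared distances was 20.0% in the FPKM table (exact permutation test, one-sided, p = 0.0286). With the replicate block it was 30.0%, against a median of 25.4% over 16 arrangements. Its p = 0.125 was the smallest possible there (exact permutation test, one-sided). With a plot left out the share lay at 19.2% to 22.2%, over 35 arrangements each. There p ran from 0.0286 (without eC replicate 4) to 0.171 (without eCeT replicate 3, exact permutation test). With the 500 most variable transcripts p was 0.114. List medians moved to -0.0089 without the TMM scaling for photosynthesis (-0.35 to 0.032 with a plot left out), to -0.42 in the FPKM table and -0.75 with 5 reads added for receptor kinases, and in the FPKM table to -0.18 for specialised metabolism and 0.62 for flowering. The correlation of the warming effects rose to 0.32 with the filter and was not run in the FPKM table, nor were the interaction and eT against C, because a control plot was not used there. For the interaction, only the groups compared and only 1 time point are the same fit. At these depths a transcript without reads in a group gave only a lower bound of the fold change.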

Other observations

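The FPKM table holds 5956 transcripts that the log2 table does not. Their median level over the 8 libraries was 0.319 FPKM, against 3.08 for the transcripts in both tables, and 158 of them were listed at 0 in all 8. The plots of eCeT and eC did not overlap for 137 that were higher and 63 that were lower in eCeT, 3.36% of these transcripts.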
